A study of Mus musculus with 15 samples.

Results

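Hemoglobin transcripts were followed library by library in thalamic tissue of mice. The genes described are 5 of the 29659 genes with a value in every library: the adult beta-globin genes Hbb-bs and Hbb-bt, the alpha-globin genes Hba-a1 and Hba-a2, and Alas2, which encodes the erythroid form of 5-aminolevulinate synthase. They were listed because earlier results on these same libraries had shown high hemoglobin transcripts in part of the EL group, so their levels and group differences are a description and carry no test. A total of 3 members (Hbb-bs, Hba-a1 and Alas2) passed the filter on low values, which asks for 3 or more of the 15 libraries with a log2 value no lower than 3.32, or 10 before the logarithm. Hbb-bt did not reach 3.32 in any library and Hba-a2 reached it in 1 library.

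Hemoglobin carries oxygen in red blood cells as a tetramer of alpha- and beta-globin chains, each holding a heme group. ALAS2 carries out the first step of heme synthesis in developing red cells, whereas ALAS1 serves that step in other tissues. In mammals the mature red cell has lost its nucleus, and young red cells (reticulocytes) still carry globin and Alas2 mRNA. Low levels of globin mRNA have also been described in some neurons and glia. In bulk tissue, fewer cells of a type and less RNA per cell cannot be told apart.

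There were 15 polyA RNA libraries of tissue from mice sampled at 4.5 months of age. All groups are given as carriers of human APOE4 knocked into the mouse Apoe gene. The groups were 5EL (5xFAD/APOE4+/+/Lilrb4a+/+, n = 5), 5ELKO (5xFAD/APOE4+/+/Lilrb4a-/-, n = 4), ELKO (APOE4+/+/Lilrb4a-/-, n = 3) and EL (n = 3). The methods do not spell out the EL genotype. The study's results describe EL and ELKO as APOE4 knock-in mice without and with deletion of Lilrb4a, so EL is read here as ELKO with Lilrb4a intact. The 5xFAD line carries amyloid-driving transgenes under the neuronal Thy1 promoter, and the knockout line was bred as a whole-animal line. Mice were bled from the heart and then perfused with ice-cold phosphate-buffered saline until the liver turned pale, before the brain was taken out. The deposited values are log2 expression values without read counts per gene, so the counts behind a gene's value are unknown. Read totals that the study lists for 5EL and 5ELKO, and not for EL and ELKO, were not used here. Low genes were drawn together in these values, with a typical (median) SD within groups of 0.043 at mean levels of 2 to 3 and 0.11 at mean levels of 5 to 7. A difference between libraries is therefore understated for Hbb-bt, Hba-a2 and Alas2 relative to Hbb-bs and Hba-a1.

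Library checks bear on what follows. Lilrb4a stayed at or below 2.33 in the 7 libraries of the deleted genotypes and at or above 2.34 in the other 8, with the value closest to the deleted range in EL replicate 1. Mouse Apoe, which APOE4 replaces, reached 10.9 in the library labelled ELKO replicate 1, whereas no other library was above 6.37, and this goes against the APOE4+/+ label of that library. Without it the Hbb-bs difference was -1.62 for ELKO minus EL and 0.40 for 5ELKO minus ELKO, against -1.58 and 0.35 with it. EL replicate 3 stood apart from the rest: its median correlation with the other libraries was 0.993, against 0.996 or more for each other library, and it held the highest value of 21.2% and the lowest value of 23.9% of the 15804 genes above the filter. Values without it are given beside the members' group differences that use EL. The thalamic markers Tcf7l2 (12.8 to 13.2), Prkcd and Slc17a6 were high in every library.

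The 4 globin genes lie in 2 clusters, and the members of each cluster are close copies. In the GENCODE M21 annotation of GRCm38, Hbb-bs spans chr7:103826534-103828096 and Hbb-bt spans chr7:103812524-103813996, both on the minus strand and 12537 bases apart. Hba-a1 spans chr11:32283511-32284465 and Hba-a2 spans chr11:32296489-32297298, both on the plus strand with 12023 bases between them. Alas2 spans chrX:150547375-150570638 on the plus strand. The coding sequences of Hbb-bs and Hbb-bt (441 bases without the stop codon) were 99.8% identical, and those of Hba-a1 and Hba-a2 (426 bases) were 99.8% identical. Each pair differed at a single coding base, C417T from Hbb-bs to Hbb-bt and C381T from Hba-a1 to Hba-a2, counted from 1 at the first base of the start codon. The coding stretch around each difference, from bases 382 to 441 of the beta-globin genes and 351 to 410 of the alpha-globin genes, show how little separates the copies, with the differing base in capitals:
Hbb-bs: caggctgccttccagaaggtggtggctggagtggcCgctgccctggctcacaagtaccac
Hbb-bt: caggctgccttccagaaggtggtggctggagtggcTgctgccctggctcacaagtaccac
Hba-a1: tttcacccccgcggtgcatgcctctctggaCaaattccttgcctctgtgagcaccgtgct
Hba-a2: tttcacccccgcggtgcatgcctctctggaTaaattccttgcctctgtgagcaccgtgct

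Of all 100-base windows in the annotated transcripts, 49.7% of those of Hbb-bs and 54.8% of those of Hbb-bt were shared between these genes, and 63.3% of those of Hba-a1 and 79.5% of those of Hba-a2 were shared in the same way. How reads that match both copies were counted can therefore set the split between them, and the value of a single copy is uncertain. Alas2 shared 8.88% of its windows, all with Apex2, a gene that overlaps it, and the authors counted reads without regard to strand. The high values of Hbb-bs beside Hbb-bt, and of Hba-a1 beside Hba-a2, are thus not a measure of how active each copy was.

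The 250 bases before the RefSeq start sites (GRCm38.p6) are printed because the members varied together over libraries. Capitals mark exact matches, on either strand, to any of 4 sets of letters. GATAAG is a site of GATA factors, whereas CACCC is a site of Klf factors. The letters CCAAT mark the box of that name, and those of the TATA box were searched as ATATAA:
Hbb-bs (chr7:103827929-103828178, minus strand): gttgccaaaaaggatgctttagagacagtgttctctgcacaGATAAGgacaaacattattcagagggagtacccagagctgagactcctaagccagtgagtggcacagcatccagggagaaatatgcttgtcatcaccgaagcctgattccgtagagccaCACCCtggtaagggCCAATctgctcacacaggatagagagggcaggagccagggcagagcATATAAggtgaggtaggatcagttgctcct
Hbb-bt (chr7:103813924-103814173, minus strand): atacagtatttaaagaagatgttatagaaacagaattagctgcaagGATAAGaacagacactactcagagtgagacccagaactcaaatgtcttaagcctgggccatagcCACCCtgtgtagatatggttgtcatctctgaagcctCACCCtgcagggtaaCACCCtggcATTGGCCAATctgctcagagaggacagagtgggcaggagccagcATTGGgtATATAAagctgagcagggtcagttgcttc
Hba-a1 (chr11:32283422-32283671, plus strand): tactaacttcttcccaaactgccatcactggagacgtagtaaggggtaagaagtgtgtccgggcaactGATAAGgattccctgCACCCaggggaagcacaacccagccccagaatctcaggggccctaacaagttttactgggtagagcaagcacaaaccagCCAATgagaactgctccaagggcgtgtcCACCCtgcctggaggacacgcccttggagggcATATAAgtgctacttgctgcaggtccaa
Alas2 (chrX:150547167-150547416, plus strand): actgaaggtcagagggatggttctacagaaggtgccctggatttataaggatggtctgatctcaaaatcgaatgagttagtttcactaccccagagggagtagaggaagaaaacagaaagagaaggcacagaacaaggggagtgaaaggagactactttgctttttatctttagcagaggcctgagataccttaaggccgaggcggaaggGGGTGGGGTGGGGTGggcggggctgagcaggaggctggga

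The Hbb-bs window held 1 match to each of the 4 sets of letters, with GATAAG from -209 to -204, CACCC from -90 to -86, CCAAT from -76 to -72 and ATATAA from -30 to -25 relative to the start. The Hbb-bt window held 1 GATAAG, 3 CACCC, 3 CCAAT and 1 ATATAA, and the Hba-a1 window held 1, 2, 1 and 1 in the same order. The Hba-a2 window shared a run of 247 bases with that of Hba-a1, whereas the longest run shared by Hbb-bs and Hbb-bt was 14 bases. The Alas2 window held 3 CACCC matches on the minus strand, 2 of which abut the next, and no match to the other letters. Among 32851 RefSeq promoter windows of this length, GATAAG was found in 6.55%, CACCC in 52.0%, CCAAT in 33.8% and ATATAA in 9.1%. A match is a run of letters and was not examined as a binding site.

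Hbb-bs was high in EL replicates 2 and 3 and low in all ELKO libraries. Its log2 values were 5.94, 7.13 and 8.28 in EL replicates 1 to 3, and 5.63, 5.50 and 5.49 in the ELKO libraries. In 5EL they were 5.79, 5.76, 5.72, 6.06 and 6.12, and in 5ELKO 5.79, 5.60, 5.71 and 6.47. EL replicate 3 lay 1.15 above the next library, EL replicate 2, which itself lay 0.66 above the third, 5ELKO replicate 4. On the linear scale, EL replicate 3 was 5.74 times and EL replicate 2 was 2.58 times the median of the other 13 libraries. The EL group did not sit apart as a whole, since its replicate 1 fell inside the range of 5EL (5.72 to 6.12).

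**Figure D1:**
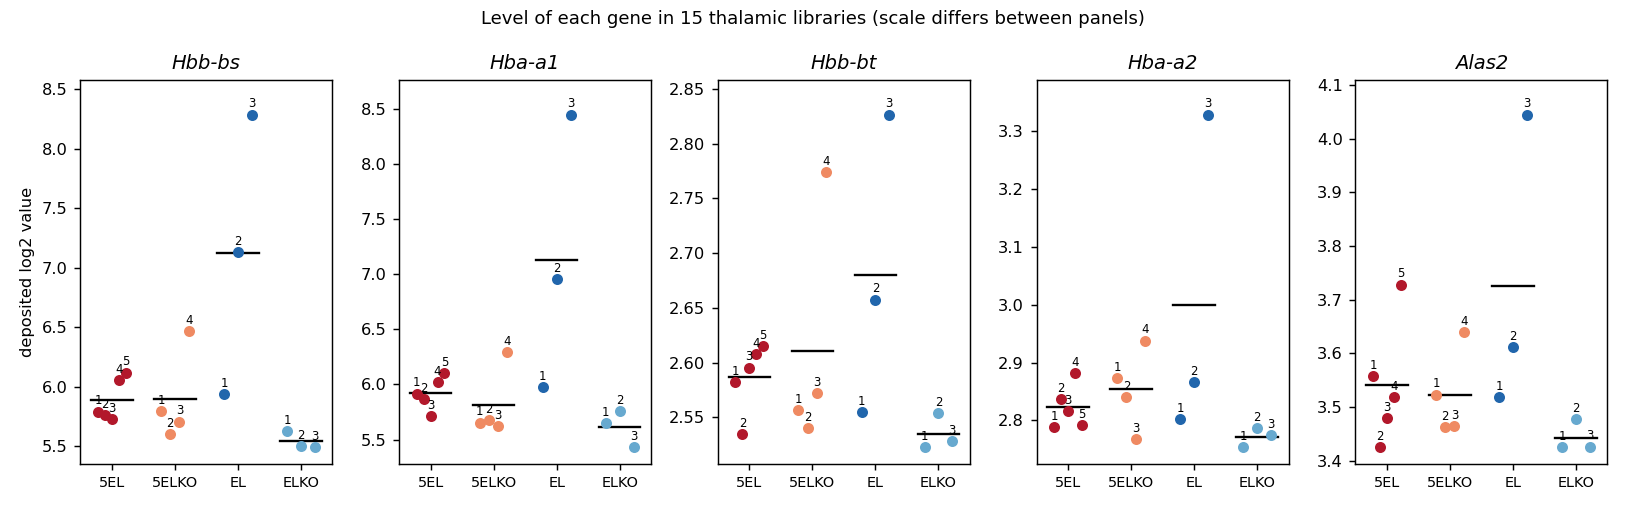
Deposited log2 values (vertical axis, a separate scale for each gene) of Hbb-bs, Hba-a1, Hbb-bt, Hba-a2 and Alas2 in the 4 genotype groups (horizontal axis); each point is a library with its replicate number, and the black line is the group mean. EL replicate 3 is the highest point in all 5 panels, and every ELKO point lies below every EL point.

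Hba-a1 followed the same order at the top. It was 8.45 in EL replicate 3, 6.96 in EL replicate 2 and 6.29 in 5ELKO replicate 4, and EL replicate 1 had 5.98. ELKO replicates 1 to 3 had 5.65, 5.76 and 5.43, the last being the lowest value of the 15. The other 5ELKO libraries ran from 5.62 to 5.67, and the 5EL libraries from 5.71 to 6.10 with a median of 5.92. Among the 15804 genes above the filter, Hba-a1 and Hbb-bs ranked 1 and 2 for the distance by which EL replicate 3 exceeded the other 14 libraries, at 1.49 and 1.15. Only 21 genes exceeded by more than 0.5, and Alas2 ranked 94 at 0.32.

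Hbb-bt and Hba-a2, the weakly counted copies, were also highest in EL replicate 3. Hbb-bt was 2.55, 2.66 and 2.83 in EL, 2.52, 2.55 and 2.53 in ELKO, 2.53 to 2.62 in 5EL, and 2.56, 2.54, 2.57 and 2.77 in 5ELKO. The second highest Hbb-bt value belonged to 5ELKO replicate 4 and the third to EL replicate 2. Hba-a2 was 2.80, 2.87 and 3.33 in EL, 2.75, 2.79 and 2.78 in ELKO, 2.79 to 2.88 in 5EL, and 2.87, 2.84, 2.77 and 2.94 in 5ELKO. Apart from EL replicate 3, the Hba-a2 libraries lay between 2.75 and 2.94.

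Alas2, the erythroid heme synthesis enzyme, was 4.04 in EL replicate 3 and 3.43 to 3.73 in the other 14 libraries. The other EL libraries had 3.52 and 3.61, and the ELKO libraries had 3.43, 3.48 and 3.43. In 5EL the values were 3.56, 3.43, 3.48, 3.52 and 3.73, and in 5ELKO they were 3.52, 3.46, 3.46 and 3.64. The second highest library for Alas2 was 5EL replicate 5, which lay below 3 other libraries for Hbb-bs. The Alas2 order therefore matched the hemoglobin order at the top library. EL replicate 2, 5ELKO replicate 4 and 5EL replicate 5 came next for both Alas2 and Hbb-bs, in different orders. Over the 15 libraries Spearman's rho of Alas2 was 0.839 with Hbb-bs, 0.779 with Hba-a1, 0.889 with Hbb-bt and 0.554 with Hba-a2.

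The comparison of ELKO with EL asks what goes with Lilrb4a deletion in the absence of 5xFAD, and here every hemoglobin member was lower in ELKO. The mean of Hbb-bs went from 7.12 ± 1.17 (SD, n = 3 libraries of EL) to 5.54 ± 0.076 (SD, n = 3 libraries of ELKO), which is a log2 difference of -1.58 (SE 0.39, 95% interval -2.40 to -0.76, limma). Hba-a1 went from 7.13 ± 1.24 to 5.61 ± 0.17, a log2 difference of -1.52 (SE 0.40, 95% interval -2.36 to -0.67). Alas2 went from 3.73 ± 0.28 to 3.44 ± 0.030, a log2 difference of -0.28 (SE 0.10, 95% interval -0.50 to -0.059). From a fit of all 29659 genes, the differences were -0.14 for Hbb-bt (95% interval -0.28 to -0.0056) and -0.23 for Hba-a2 (95% interval -0.44 to -0.017), and without EL replicate 3 they were -0.071 and -0.062. The median over the genes above the filter was 0.0033. The SD in EL was larger than that in ELKO for each member, and the intervals assume a common spread.

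The ranges of EL and ELKO did not overlap for 5 of 5 members, with ELKO lower, where 2.61% of all genes behaved so. That pattern is part of what chose the members, and nothing is read from the count. The gap between the lowest EL and the highest ELKO value was 0.31 for Hbb-bs and 0.22 for Hba-a1, but 0.00075 for Hbb-bt, 0.015 for Hba-a2 and 0.041 for Alas2. At an adjusted p under 0.05 (limma with Benjamini-Hochberg adjustment) no gene was called in this comparison, 0% of 15804 genes, and 372 genes (2.35%) had an unadjusted p under 0.05. Without EL replicate 3 the Hbb-bs difference was -0.996, that of Hba-a1 -0.86 and that of Alas2 -0.12, and without EL replicate 1 they were -2.17, -2.09 and -0.39. The direction was the same in each case, as it had to be without overlap of the groups, and the size rested on which EL libraries were kept.

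Same-numbered EL and ELKO libraries were set side by side. Over the 15804 genes their deviations from the group means had correlations of 0.453, 0.325 and 0.742 for pairs 1, 2 and 3. Replicates 1 and 2 also went together across numbers, at 0.376 (EL 1 with ELKO 2) and 0.295 (EL 2 with ELKO 1). Correlations of a replicate 3 with the other numbers were negative (-0.626 to -0.465). These values thus set only pair 3 apart, and pairs 1 and 2 rest on the numbers in the labels. Neither the labels nor the methods say what the members of a pair share. Hbb-bs was lower in ELKO by 1.24 times in pair 1, 3.10 times in pair 2 and 6.93 times in pair 3. For Hba-a1 the ratios were 1.26, 2.30 and 8.11, and for Alas2 they were 1.07, 1.10 and 1.54. All 5 members were lower in the ELKO library in each of the 3 pairs, as were 12.8% of all genes. Since every ELKO value of a member lay below every EL value, any pairing would give this, and nothing is read from the count. The log2 difference was smallest in pair 1 and largest in pair 3 for every member.

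**Figure D2:**
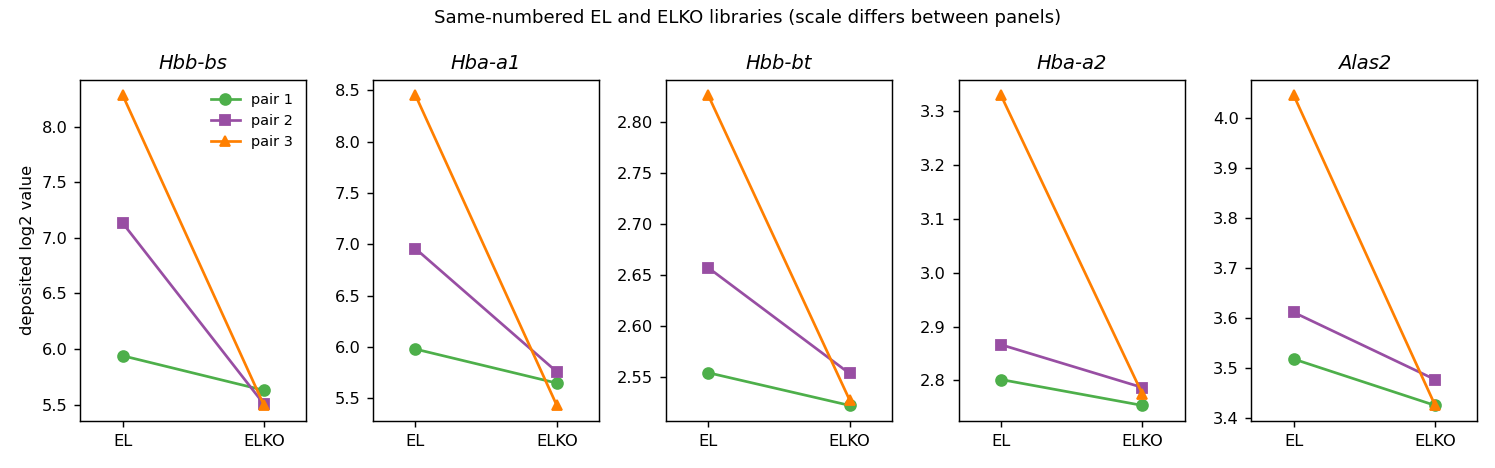
Deposited log2 values (vertical axis, a separate scale for each gene) of the 5 members in EL and ELKO (horizontal axis); each line joins the libraries with the same replicate number (circles, squares and triangles for pairs 1, 2 and 3). All 15 lines go down from EL to ELKO, as they would under any pairing because the ranges do not overlap. The lines fan out in EL while the ELKO ends lie close together.

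In pair 3 the members were set beside the genes that were high in EL replicate 3, a set that itself holds Hba-a1 and Hbb-bs. The 100 genes above the filter that most exceeded the other EL libraries in EL replicate 3 had a median excess of 0.66, and 87 of them were also higher in ELKO replicate 3 than in both other ELKO libraries, with a median excess of 0.38. Over all genes above the filter, 39.2% were highest of the ELKO libraries in replicate 3. Hba-a1 and Hbb-bs ranked 1 and 3 for that excess in EL replicate 3, at 1.98 and 1.75. In ELKO replicate 3, however, Hba-a1 was 0.27 and Hbb-bs 0.073 below the mean of the other ELKO libraries (log2 values of -0.27 and -0.073). Alas2, at 0.48 in EL replicate 3, was at -0.025 in ELKO replicate 3. Hba-a1, Hbb-bs and Alas2 were thus high in only 1 of the libraries of pair 3, whereas most of the 100 genes were high in both. Low values in ELKO are part of what chose the members, so this is a description and nothing is read from it.

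In the comparison the study was built on, 5ELKO against 5EL, the hemoglobin members showed no difference larger than the spread of the libraries. The mean of Hbb-bs was 5.89 ± 0.18 (SD) over the 5EL group of n = 5 and 5.89 ± 0.39 (SD) over the 5ELKO group of n = 4, with a log2 difference of 0.0023 with a 95% interval from -0.33 to 0.34. Hba-a1 differed by -0.11 (95% interval -0.39 to 0.17), Alas2 by -0.019 (-0.15 to 0.11), Hbb-bt by 0.024 (-0.083 to 0.13) and Hba-a2 by 0.032 (-0.051 to 0.11). The groups overlapped for 5 of 5 members, and of all genes 0.428% were without overlap and lower in 5ELKO and 0.526% higher. In this comparison 3 of 15743 genes (0.0191%) were called at an adjusted p under 0.05 and 2.49% had an unadjusted p under 0.05, and no member was among the 3. 5ELKO replicate 4 was the highest library of its group for all 5 members, and without it the Hbb-bs difference was -0.19 and that of Hba-a1 -0.28. The overlap for Hba-a1 rested on that library, since the other 5ELKO values (5.62 to 5.67) lay below every 5EL value (5.71 to 6.10).

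With Lilrb4a intact, the mean of 5EL lay below that of EL, a comparison that uses the same EL libraries as ELKO against EL. The log2 difference of Hbb-bs was -1.23 (95% interval -1.96 to -0.49), that of Hba-a1 -1.20 (-1.96 to -0.45) and that of Alas2 -0.18 (-0.38 to 0.016). The ranges of these groups overlapped for 5 of 5 members, since EL replicate 1 lay among the 5EL libraries, and of all genes 1.39% were without overlap and lower in 5EL and 1.21% higher. Of the 15804 genes, 0 were called at an adjusted p under 0.05 (limma), and 7.7% had an unadjusted p under 0.05. Without EL replicate 3 the Hbb-bs difference was -0.65, that of Hba-a1 -0.54 and that of Alas2 -0.023. With Lilrb4a deleted, 5ELKO exceeded ELKO by 0.35 for Hbb-bs (95% interval -0.42 to 1.12) and by 0.20 for Hba-a1 (-0.59 to 0.99), and without 5ELKO replicate 4 by 0.16 and 0.037. In this comparison 0 genes were called and 2.37% had an unadjusted p under 0.05 (limma). These groups also overlapped for 5 of 5 members, beside 1.44% of all genes without overlap and lower in 5ELKO and 1.74% higher.

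The change with deletion was 1.58 higher with 5xFAD than without it for Hbb-bs (SE 0.50, 95% interval 0.52 to 2.65) and 1.40 higher for Hba-a1 (SE 0.52, 95% interval 0.31 to 2.50). For Alas2 the value was 0.26 (95% interval -0.026 to 0.55). The members count as chosen from this contrast as well, so no p is given, and 0 of 15804 genes passed at an adjusted p under 0.05 while 2.73% had an unadjusted p under 0.05 (limma). Without EL replicate 3 the values were 0.998 for Hbb-bs, 0.74 for Hba-a1 and 0.10 for Alas2, and without EL replicate 1 the Hbb-bs value was 2.17.

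**Figure D3:**
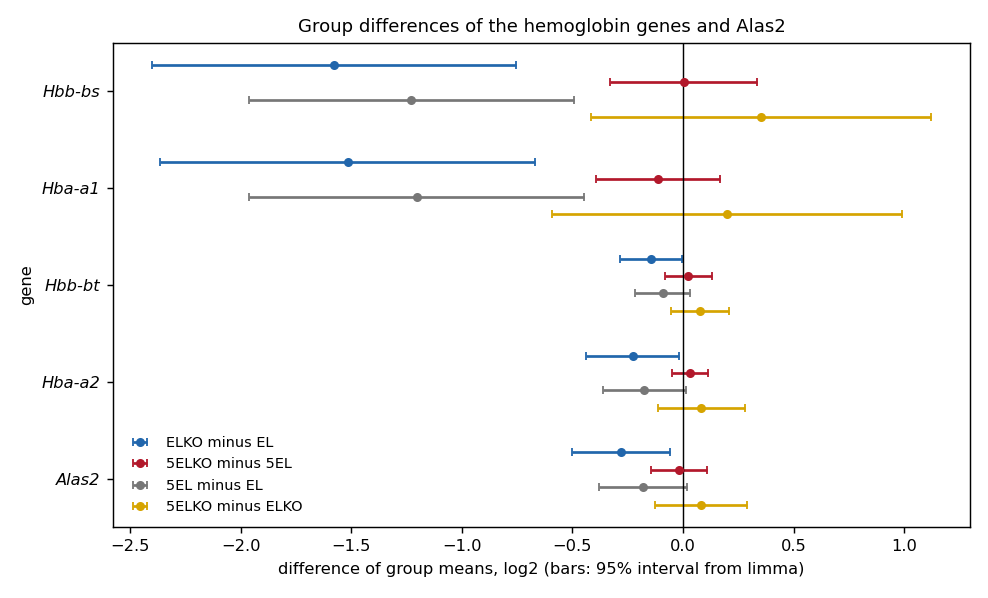
Differences of group means on the log2 scale (horizontal axis) for each member (vertical axis), with 95% intervals from limma as bars, in 4 comparisons told apart by colour. The points of ELKO minus EL range from -1.58 (Hbb-bs) to -0.14 (Hbb-bt) and those of 5ELKO minus 5EL from -0.11 (Hba-a1) to 0.032 (Hba-a2). The bars describe the uncertainty of each difference and are no test, and EL libraries enter 2 of the comparisons.

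Hbb-bs and Hba-a1, which encode the partner chains of hemoglobin from different chromosomes, varied together most closely. Over the 15 libraries Pearson's r was 0.986 and Spearman's rho 0.882, and over the 13 libraries without EL replicates 2 and 3 r was 0.907. With the group means subtracted, Hba-a1 ranked 1 of 15803 genes for its correlation with Hbb-bs, and it ranked 1 again without EL replicate 3 (r of 0.976 and 0.954). The correlation of Hbb-bs with Alas2 was 0.903 (0.780 without EL replicates 2 and 3), that with Hbb-bt 0.878 (0.871) and that with Hba-a2 0.888 (0.686). The lowest value without those libraries was 0.343, between Hba-a2 and Alas2. These correlations describe libraries from which the members were chosen, the copies share much of their sequence, and no p is given.

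**Figure D4:**
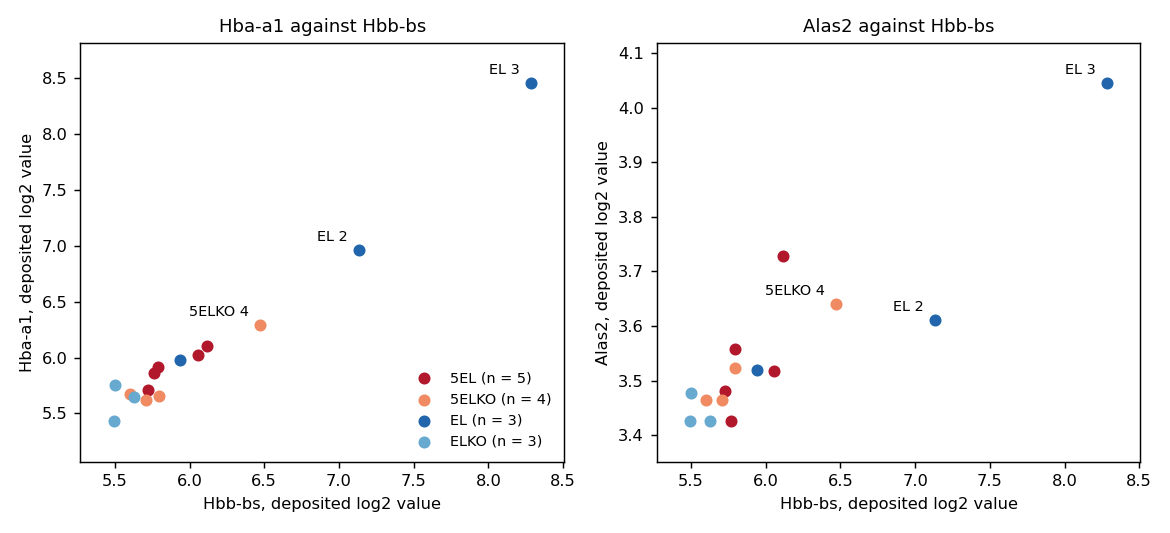
Hba-a1 (left) and Alas2 (right) against Hbb-bs, all as deposited log2 values, with 1 point per library coloured by group. EL replicates 2 and 3 and 5ELKO replicate 4 lie at the upper end of the line for Hba-a1, and below them 12 libraries sit between 5.49 and 6.12 for Hbb-bs.

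The other genes most like Hbb-bs were in none of the red cell lists. After Hba-a1, the 10 genes above the filter with the highest correlation to Hbb-bs (group means subtracted, 15 libraries, members left out) were Chmp2b, Col24a1, Tmem184c, Mex3b, P2rx4, Trim43a, Pcp4l1, Zfp429, Asb13 and Nudt4, with r from 0.870 to 0.921. All 10 were highest in EL replicate 3, by 0.093 to 0.31 over the next library. Without EL replicate 3 their r was 0.651 to 0.792 and the best of them ranked 26. In the same ranking Alas2 moved from 10 to 267.

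Both EL replicates 2 and 3 lay above the other 13 libraries for 0 of 16 red cell membrane genes, 1 of 11 regulators, 1 of 17 heme synthesis genes and 2 of 12 other red cell genes. Over all genes the share with that order was 3.21%. Of 16 red cell membrane and cytoskeleton genes with values, 7 were above the filter, and the defining markers Slc4a1 (the anion exchanger band 3; 1.15 to 1.24), Rhag (-1.91 to -1.90) and Epb42 (2.84 to 3.09) lay low in all 15 libraries. None of the 16 was highest in EL replicate 3, beside 15.2% of all genes. In contrast, 6 of the 16 were lowest there, beside 15.6% of all genes. Among them was Sptb (10.7, against 11.4 to 11.9 in the others), which neurons also express. Of the 7 tested genes, 0 had an unadjusted p under 0.05 in any of the comparisons (limma), and the median difference of ELKO minus EL was 0.048.

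The regulators of red cell development spanned narrow ranges too. Gata1 (-0.86 to -0.82), Nfe2, Gfi1b and Hemgn lay below the filter, and Klf1, an activator of the adult beta-globin gene, was 1.66 to 1.77. The 2 highest Klf1 values, 1.75 and 1.77, belonged to EL replicates 2 and 3, and the other libraries ran up to 1.73. Such ordering, with both of these libraries above the other 13, occurred in 3.21% of all genes. Of 6 regulators above the filter, Tal1 alone had an unadjusted p under 0.05 in 5ELKO against 5EL, with a log2 difference of -0.16 (adjusted p = 0.999, limma), and the median in ELKO against EL was 0.0091.

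Among 17 heme synthesis and iron supply genes, all above the filter, 0 passed at an adjusted p under 0.05 in any comparison. Slc25a37 (mitoferrin 1), which brings iron into mitochondria and is abundant in developing red cells, was 10.5 in EL replicate 3 and 10.2 in EL replicate 2 against 9.57 to 9.98 in the other 13. Its log2 difference was -0.32 in ELKO against EL (unadjusted p = 0.031, adjusted p = 0.998, limma) and -0.39 in 5EL against EL (adjusted p = 0.63). Without EL replicate 3 these were -0.16 and -0.23. Alad, the next enzyme after ALAS in heme synthesis, differed by 0.18 in ELKO against EL (unadjusted p = 0.026, adjusted p = 0.998). Alas1, the form outside red cells, spanned only 9.51 to 9.68 and was lowest in EL replicate 3. Over this list 5 of 17 genes were highest in EL replicate 3, beside 21.2% of the genes above the filter, and the median of ELKO minus EL was -0.0034.

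Of 12 further genes that red cells hold in quantity, 9 were above the filter. Tspan33, a tetraspanin of the erythroid lineage, differed by -0.15 in ELKO against EL (unadjusted p = 0.019, adjusted p = 0.998, limma) and by -0.22 in 5EL against EL (adjusted p = 0.63), which were -0.094 and -0.16 without EL replicate 3. It was 10.5 in EL replicate 3 and 10.3 in EL replicate 2, both above the other 13 libraries (10.1 to 10.26), and Mkrn1 was the other gene of the 12 with that order, by a narrow margin. Isg20 differed by -0.12 in ELKO against EL (unadjusted p = 0.034, adjusted p = 0.998), and by -0.066 without EL replicate 3. Bpgm, which makes the red cell regulator of oxygen affinity, was 10.6 in EL replicate 3 but also 10.5 in ELKO replicate 3, and Car2 (carbonic anhydrase 2) was 12.2 and 12.1 in the same libraries. Bpgm and Car2 were thus high in both libraries of pair 3, and oligodendrocytes express Car2 as well. In all, 5 of the 12 genes were highest in EL replicate 3, beside 15.2% of all genes. The list median of ELKO minus EL was -0.052.

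Globins of nervous tissue were lowest in EL replicate 3, the library highest for hemoglobin, as were 23.9% of the genes above the filter. Neuroglobin (Ngb) was 6.55 in EL replicate 3 against 7.42 to 8.14 in the other 14 libraries, and cytoglobin (Cygb) was 8.17 against 9.16 to 10.3. Myoglobin (Mb) was 4.83 to 5.08 and was not lowest in that library. The mean of Ngb, Cygb and Mb correlated with Hbb-bs at r = -0.711 and rho = -0.154 over the 15 libraries. Without EL replicates 2 and 3 r was 0.21, so the inverse relation rested on those libraries. Ngb was 0.58 higher in 5EL than in EL (unadjusted p = 0.018, adjusted p = 0.63, limma) and Cygb 0.69 higher (adjusted p = 0.63), and without EL replicate 3 these were 0.20 and 0.16. Of the embryonic and theta globins, Hbb-y (-0.57 to -0.53), Hbq1b and Hbq1a (2.98 to 3.18) lay below the filter.

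Genes that bind or clear free hemoglobin, heme and iron differed among themselves in EL replicate 3. Of 14 such genes, 7 were highest there, beside 21.2% of the genes above the filter: the ferritin chains Fth1 (15.2, others up to 15.1) and Ftl1, the heme oxygenase Hmox2, Blvra, Slc40a1 (the iron exporter ferroportin), Slc48a1 and Trf. Transferrin (Trf), which oligodendrocytes also make, was 9.61 in EL replicate 3 and 9.34 in EL replicate 2 against 8.80 to 9.30 in the other 13. The mean of the list was highest in EL replicate 3, at 8.72, but was 8.71 in 5ELKO replicate 4 and 8.70 in 5ELKO replicate 1. Haptoglobin (Hp) was 4.40 in EL replicate 3, its lowest value, and hemopexin (Hpx) 4.06, while Hmox1, which breaks down heme, was 5.80 within a range of 5.73 to 6.07. In 5ELKO against 5EL, Hp was 0.35 higher (unadjusted p = 0.00103, adjusted p = 0.869, limma) and Hpx 0.23 higher (adjusted p = 0.276), and both of these genes are also made in quantity by hepatocytes. In that comparison 21 of 23 tested hepatocyte genes had an unadjusted p under 0.05 and a higher level in 5ELKO, and the 3 genes called at an adjusted p under 0.05 (Alb, Bhmt and Serpina3k) were among them. Albumin (Alb) was highest in EL replicate 1 (8.59), whereas EL replicates 2 and 3 had 5.91 and 5.75.

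Most markers of other blood cells lay below the filter. Of 18 neutrophil and monocyte markers, 2 (Lcn2 and Mmp9) were above the filter, and S100a8 was 1.73 to 1.86 and S100a9 2.17 to 2.28. Of the 18 markers, 0 had both EL replicates 2 and 3 above the other 13 libraries. In EL replicate 3, 1 of them was highest and 4 were lowest, beside 15.2% and 15.6% of all genes. The neutrophil genes S100a8, S100a9, Ngp (1.80, others up to 1.67) and Retnlg, singled out after their values were seen, were highest in EL replicate 2. That library was second for Hbb-bs and Hba-a1, and S100a9 was lowest in EL replicate 3. The score of this list averages only Lcn2 and Mmp9, so it holds none of those neutrophil genes. It was at most 4.51 in EL. In ELKO it ran from 4.53 to 4.81, in 5EL from 4.54 to 5.50 and in 5ELKO from 4.52 to 4.95. Of 20 lymphocyte markers 5 were above the filter, among them the immunoglobulin genes Ighm (6.56 to 6.89) and Igkc (5.31 to 5.94), with Cd3e below it at 1.28 to 1.37. Of 13 platelet markers 5 were above the filter, among them Gp1bb (6.57 to 6.93) and Itga2b (5.52 to 5.66), and Pf4 was 1.92 to 2.07. The platelet chemokine gene Ppbp, singled out after its values were seen, was 1.75 in both EL replicates 2 and 3 and no more than 1.54 in the other 13 libraries. Of the 13 platelet markers, 3 had both libraries above the other 13 (Ppbp, Gp6 and Tubb1, all below the filter). Over all genes 3.21% had that order. The endothelial score was 9.11 in EL replicate 3 and 9.08 in EL replicate 2, and it was higher, at 9.16, in 5ELKO replicate 4. It was also 9.09 in ELKO replicate 3, the lowest library for Hbb-bs (5.49) and Hba-a1 (5.43). How much of the hemoglobin signal came from blood left in the tissue was not tested.

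Across the 15 libraries none of the 19 list scores (the mean log2 value of the listed genes above the filter) correlated with Hbb-bs at an adjusted p under 0.05. Neuron markers had r = 0.595 (permutation test, p = 0.00818, adjusted p = 0.0647). Thalamic neuron markers had r = 0.629 (permutation test, p = 0.0121, adjusted p = 0.0647). The score of the red cell membrane list had r = -0.737 (permutation test, p = 0.0136, adjusted p = 0.0647) and rho = -0.40 (permutation test, p = 0.141). That of the other red cell genes had r = 0.677 (permutation test, p = 0.00977, adjusted p = 0.0647) and rho = 0.414 (permutation test, p = 0.126). Without EL replicates 2 and 3, the libraries farthest from the median of Hbb-bs, these red cell lists had r = 0.0082 and r = 0.36. Neuron markers then had r = 0.20 and thalamic neuron markers r = -0.045, so all of these relations rested on those libraries. The largest values of r without them were 0.730 for astrocyte and 0.689 for microglia markers (permutation test, adjusted p = 0.0616 for both). By rank, platelet markers had the largest value, a rho of 0.764 (permutation test, adjusted p = 0.0523).

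**Figure D5:**
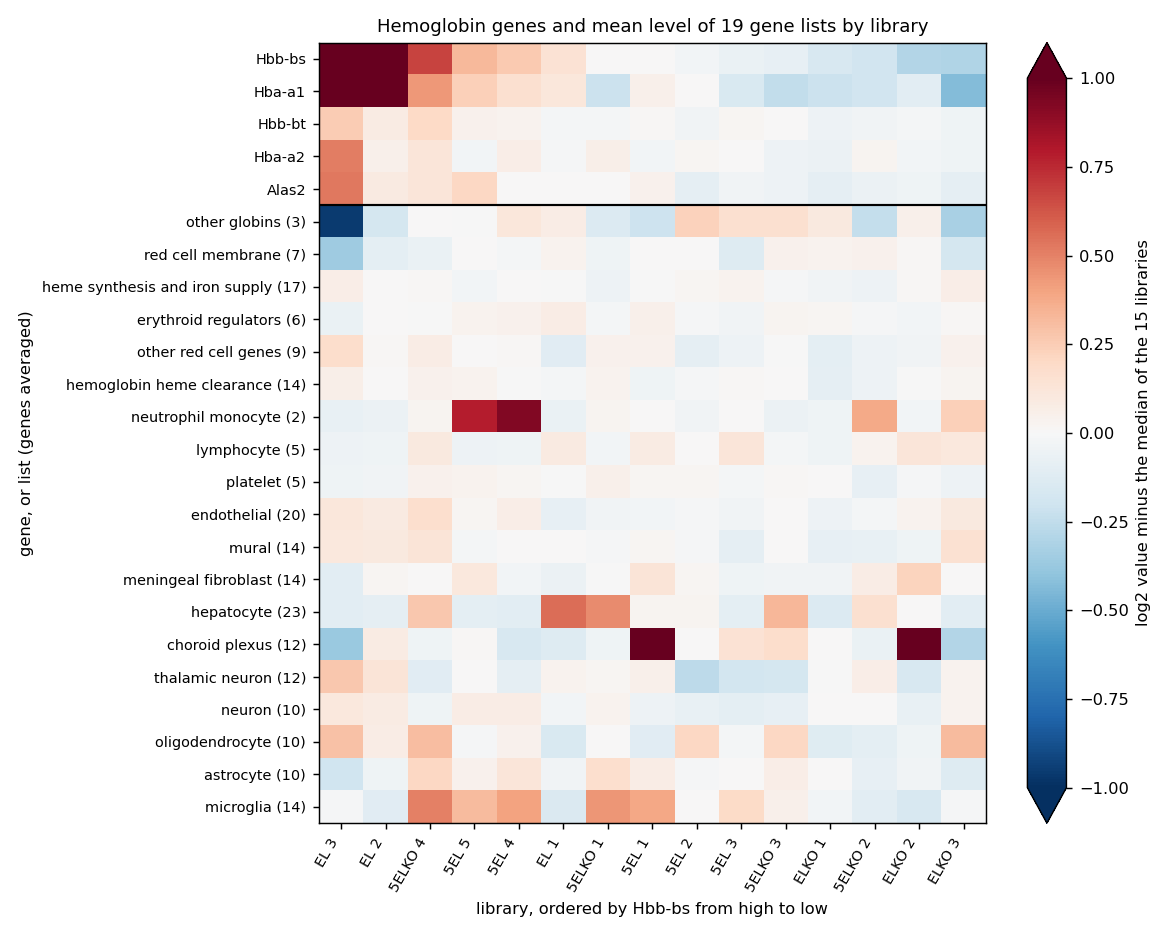
Members (above the line) and mean levels of 19 gene lists (below it, with the number of genes averaged) in the 15 libraries, ordered by Hbb-bs from high to low; colour is the log2 value minus the median of the 15 libraries, capped at -1 and 1. The 5 members are highest at the left end, in EL replicate 3, where the other globins (Cygb, Ngb and Mb) and the red cell membrane list are lowest. The erythroid regulator, neutrophil and monocyte, lymphocyte, meningeal fibroblast, choroid plexus and astrocyte lists are also lowest there. The lists of other red cell genes, hemoglobin and heme clearance, thalamic neurons and neurons are highest there.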

How the data were processed

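Polyadenylated RNA of mouse thalamus was sequenced, and per the study's methods the authors used Trimmomatic 0.39 for trimming, HISAT2 2.2.1 for alignment against GRCm38 and featureCounts 2.0.3 for unstranded counts of read pairs over exons. The deposited values are log2 expression values for 29659 genes, ranging from -2.27 to 18.98. The transform is not named in the sources used here, but the values are shrunken at low levels in the way of DESeq2's regularized logarithm, and the read counts behind a value are not known from them.

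Group means were compared with limma 3.58.1 (R 4.3.3, trended variance, Benjamini-Hochberg adjustment). The fit of 5ELKO against 5EL used their 9 libraries and 15743 genes at 3.32 or more in at least 4 of them. All other comparisons used 15 libraries and 15804 genes. The fits were checked on simulated data. The labels number the libraries of a group without naming the mouse, so the p-values set a group difference against the spread between these libraries. No 2 libraries were identical.

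Members, gene lists and tests were chosen with earlier results of these data known. Named genes were the members, the 10 genes above the filter most correlated with Hbb-bs after subtraction of group means, Lilrb4a, Apoe, Alb and Ttr as checks, and from each list up to 4 genes with an adjusted p under 0.05, or else the 2 of smallest p in ELKO against EL and the 2 of smallest p in 5ELKO against 5EL. Defining markers and other listed genes outside this rule were named after their values were seen. EL and ELKO libraries of the same number departed from their group means together (r over 0.1 in 3 of 3 pairs). Replicates 1 and 2 did so across numbers as well (r of 0.376 and 0.295), so their pairing is read from the shared numbers in the labels alone. Correlations with list scores used 100000 permutations, two-sided. Gene positions came from GENCODE M21 and promoter windows from RefSeq. Alternatives were a replicate block, no filter or a stricter one, no variance trend, robust estimation, recentring, group medians, other sets of libraries in the fit and leaving out each library. Some listed genes are not reported here.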

Additional observations from a re-analysis of the deposited data

Results flagged for a closer look

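A library was looked at more closely when its gap to the nearest library of its group took up more of the group's range than Dixon's 95% limit, which chance alone passes in about 1 of 20 groups. Of the 48 groups examined, 6 passed. In 5ELKO, replicate 4 had a gap of 0.92 of the range for Hba-a1 (6.29, others 5.62 to 5.67) and of 0.863 for Hbb-bt (2.77, others 2.54 to 2.57). The same library stood apart in the mean level of endothelial markers, with a gap of 0.832 of the range (9.16, the next being 8.999), and whether that bears on its hemoglobin level was not tested. 5EL replicate 3 stood apart in the red cell membrane list with a gap of 0.819. For choroid plexus markers the gap was 0.853 in 5EL replicate 1 and 0.882 in 5ELKO replicate 3. The EL and ELKO groups, with 3 libraries each, were too small for this rule.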

How the results depend on the processing

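The lower level of Hbb-bs in ELKO than in EL kept its sign under each alternative. Leaving out a library could not change that sign, since every ELKO value lay below every EL value, and nothing is read from it. The size of the difference rested on EL: leaving out 1 library gave -2.17 (without EL replicate 1) to -0.996 (without EL replicate 3). The same exclusions gave -1.82 to -0.65 for 5EL minus EL and 0.998 to 2.17 for the difference between the changes with and without 5xFAD. Genes called at an adjusted p under 0.05 numbered 3 in 5ELKO against 5EL. They were 1 without the filter, 1 with the replicate block, 0 with all 15 libraries in the fit, and 0 to 4 when 1 library was left out. With 1 library left out, the calls were 0 to 1 in ELKO against EL, 0 to 31 in 5EL against EL and 0 to 2 in 5ELKO against ELKO, in each case the most without EL replicate 1. In 5EL against EL, 1 gene was called without the filter. The cause of these shifts was not tested. The replicate block left the Hbb-bs difference of ELKO minus EL at -1.58, with an SE of 0.32, and moved the genes with an unadjusted p under 0.05 from 372 to 997. In 5EL against EL the block moved them from 1217 to 2557, in 5ELKO against ELKO from 375 to 738 and in the test of the difference from 432 to 788. Same-numbered 5EL and 5ELKO libraries did not deviate together (r from -0.244 to 0.143). Of 102 listed erythroid, blood and vascular genes above the filter, 34 changed sign in ELKO minus EL and 21 in 5EL minus EL when EL replicate 3 was left out, among them Bpgm (-0.082 to 0.032 in ELKO minus EL) and Car2 (-0.072 to 0.11). With each library left out in turn, Trbc2 in ELKO minus EL ranged from -0.0033 to 0.18 and Sptb in 5EL minus EL from -0.053 to 0.53. List scores passed an adjusted p of 0.05 for 7 lists after recentring, 2 without 5ELKO replicate 4 and 7 without ELKO replicate 3. Without counts per gene, counting error is not given for the members.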
